A study of Oryza sativa with 36 samples.

Results

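Bowman-Birk protease inhibitors are represented here by 7 rice genes, chosen by their locus identifiers from the 38978 genes of the count table. Chromosome 1 carries 6 of them, and 5 of these have closely numbered identifiers: Os01g0124000 (RBBI2-1), Os01g0124100 (RBBI3-2), Os01g0124200 (RBBI3-1), Os01g0124401 (RBBI3-3) and Os01g0124650 (RBBI2-3). The sixth of that chromosome, Os01g0127600, is annotated in the study's tables as similar to a D-II type inhibitor, and the seventh, Os03g0823400, lies on chromosome 3. All 7 genes had at least 4 counts in each of the 36 libraries. The annotation calls RBBI2-3 only a conserved hypothetical gene, and no annotation of Os03g0823400 was used beyond its listing as a Bowman-Birk gene.

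The libraries came from leaf sheaths of seedlings of 4 indica lines. RP is the recurrent parent 'Wushansimiao' (WT in the titles), B14 carries BPH14, B15 carries BPH15, and B1415 carries both resistance genes in the RP background, so that each resistance genotype is represented by 1 line. Each line was sampled non-infested (RP_0, B14_0, B15_0, B1415_0), after early feeding by the brown planthopper (BPH; leaf sheaths of 3, 6 and 12 h pooled) and after late feeding (24, 48 and 72 h pooled), with 3 libraries in each of the 12 groups. A replicate held 15 seedlings, with 8 nymphs on each infested seedling. Whether a pooled library held 15 seedlings in all or 15 of each time is not stated. Because infestation times were pooled, times within a stage cannot be told apart, and because a library is a piece of tissue, a change in RNA per cell and a change in the cells present cannot be told apart either.

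Bowman-Birk inhibitors are small secreted proteins, held together by disulfide bonds, whose exposed loops sit in the active site of trypsin-like and chymotrypsin-like serine proteases and block it. Cereals carry them in tandem gene families, and in rice leaves their transcripts are known to rise after wounding and jasmonate treatment. Plant protease inhibitors are studied as defence proteins because they can slow protein digestion in feeding insects and inhibit microbial proteases. RBBI2-3 is known in rice for conferring resistance to blast fungus when overexpressed. BPH14 encodes an intracellular immune receptor of the nucleotide-binding, leucine-rich repeat class.

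RBBI2-1 is the family member for which the study designed a quantitative RT-PCR assay, and its primers are shown because they are the only designed sequences here that belong to a member. Both are 20 bases long, with 11 and 10 G or C bases, and they are written from the 5′ end.
Os01g0124000 forward: gcgacatggtgaattcgtcg
Os01g0124000 reverse: acacacgcagactgatcgtt
Values of that assay were not analysed here. Protein, promoter and transcript sequences of the members were not used, so their levels cannot be expressed per length and the members are not ranked against each other by level.

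Total counts ran from 10601967 to 18692187 per library, with a median of 15884382. The Rubisco small subunit genes, which mark green tissue, stood between 436 and 7145 CPM, while the root gene RCc3 stayed at or below 0.382 CPM and a glutelin gene of endosperm was listed at 0 in every library. Levels are given as CPM, a gene's count relative to the total count of its library, scaled by TMM factors that correct for differences in library composition. Together the 7 genes took 0.0160% to 0.281% of all counts, and their summed level ran from 150.2 to 2886 CPM. The library labelled B15_late-3 and that labelled B1415_late-3 stood apart from their own groups in nearly every member, as described below, so results that rest on them are given with and without both. Both were picked out by their values in these same members. Adjusted p-values and calls without them do not allow for that choice and are given as description only. The cluster members are similar tandem copies and the strand setting of the counting is not given in the sources used here, so how reads were divided between copies or overlapping genes is uncertain. Among the non-infested libraries, B14_0-3 stood above B14_0-1 and B14_0-2 in 6 of the 7 members. It also differed from them over all genes. The chi-square per degree of freedom of counts was 59.4 and 52.0 against B14_0-1 and B14_0-2, and 2.21 between those. The same values were 29.3 and 23.0 for B1415_late-3 and 19.6 and 16.5 for B15_late-3 against their own groups.

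**Figure D1:**
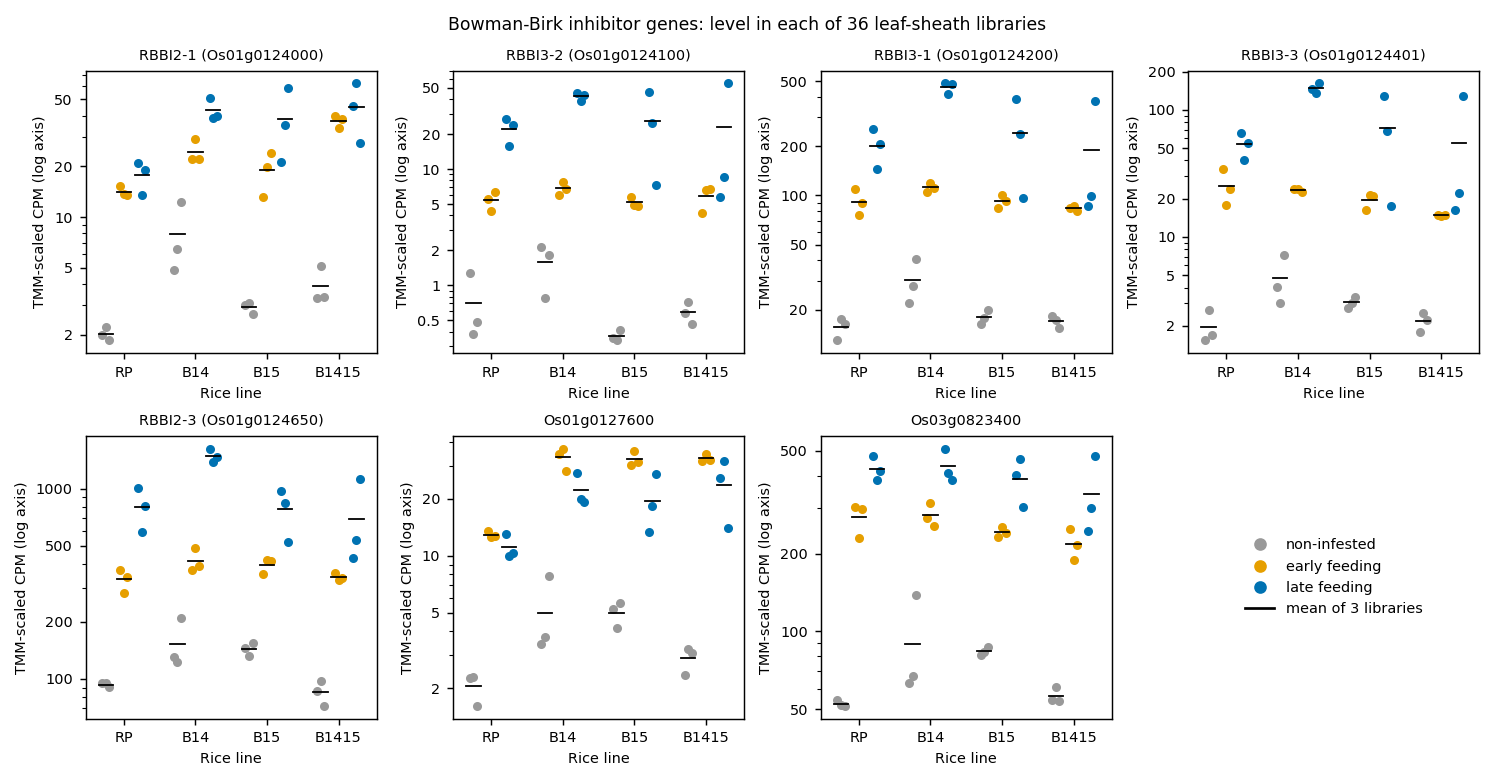
Level of each Bowman-Birk gene (TMM-scaled CPM, logarithmic axis, 1 panel per gene) in each of 36 libraries, by line and feeding stage, with bars at the mean of 3 libraries. Every fed library lies above the non-infested libraries of its own line, and within B15 and B1415 the late libraries are widely spread.

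RBBI2-1 encodes a trypsin inhibitor of the family and was low before feeding. Its levels were 2.00, 2.23 and 1.86 CPM in RP_0, 3.01, 3.09 and 2.65 CPM in B15_0, 3.32, 5.10 and 3.34 CPM in B1415_0, and 4.87, 6.46 and 12.3 CPM in B14_0. Early feeding brought it to 15.3, 13.7 and 13.4 CPM in RP, 22.0, 29.0 and 22.2 CPM in B14, 13.2, 19.8 and 24.1 CPM in B15, and 39.5, 33.6 and 38.2 CPM in B1415. The B1415 libraries were thus the highest at this stage, above every library of the other lines. At the late stage it stood at 20.9, 13.6 and 19.1 CPM in RP, 50.5, 38.6 and 39.6 CPM in B14, 21.2, 35.1 and 57.9 CPM in B15, and 45.3, 61.9 and 27.5 CPM in B1415. Of the 12 group means, B1415_late was highest (44.9 CPM ± 17.2, SD, n = 3) and RP_0 lowest (2.03 CPM ± 0.187, SD, n = 3). In descending order B1415_late, B14_late and B15_late each overlapped with the group that followed. That after B15_late was B1415_early, which did not overlap with B14_early below it.

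The RBBI3 genes encode the bran-type trypsin inhibitors of the cluster. RBBI3-2 was barely detected before feeding, with 4 to 38 counts per library and levels of 1.27, 0.382 and 0.479 CPM in RP_0. It reached 5.54, 4.33 and 6.30 CPM in RP_early and 27.2, 15.9 and 23.8 CPM in RP_late. The RP stages did not overlap with each other. In B14_late it stood higher, at 45.1, 38.6 and 43.3 CPM. RBBI3-1 rose in RP from 12.9, 17.4 and 16.4 CPM to 109, 75.7 and 89.7 CPM at the early stage and 254, 145 and 206 CPM at the late stage, and B14_late held 484, 415 and 478 CPM. RBBI3-3 went in RP from 1.53, 2.67 and 1.68 CPM through 34.1, 17.9 and 23.7 CPM to 65.5, 40.2 and 54.7 CPM, with 147, 135 and 161 CPM in B14_late. For each of the RBBI3 genes B14_late had the highest mean of the 12 groups, and for RBBI3-1 and RBBI3-3 its libraries did not overlap with those of B15_late, the next group. The B14_late mean of RBBI3-2 was 59.7 times that of RP_0, against 29.4 times for RBBI3-1 and 75.2 times for RBBI3-3.

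RBBI2-3 had 95.3, 94.5 and 90.1 CPM in RP_0, 374, 283 and 344 CPM in RP_early and 1013, 592 and 812 CPM in RP_late. B14_late again held the highest libraries, with 1622, 1384 and 1473 CPM, which did not overlap with RP_late, the next group. Os03g0823400, the chromosome 3 member, went in RP from 54.4, 51.7 and 51.5 CPM to 304, 229 and 298 CPM and then to 479, 384 and 418 CPM. Its late levels were alike in RP and B14 (509.9, 412 and 386 CPM in B14_late), and the ranges of these groups overlapped.

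Os01g0127600 had another order of levels. Its 3 highest group means were the early groups of the resistant lines, with 34.6, 36.8 and 28.0 CPM in B14_early, 30.2, 35.9 and 31.2 CPM in B15_early, and 31.8, 34.5 and 31.9 CPM in B1415_early, which overlapped with one another. The RP_early libraries held 13.5, 12.6 and 12.8 CPM, below all of these. At the late stage RP had 13.1, 9.95 and 10.3 CPM and B14 had 27.5, 20.0 and 19.2 CPM. RP_0 was lowest, with 2.27, 2.29 and 1.62 CPM.

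Early feeding raised the family in every line. A gene was called when the Benjamini-Hochberg adjusted p of edgeR's quasi-likelihood test over all genes was below 0.05 and the change exceeded 2-fold. Of 28 tests (7 genes in 4 lines) 26 were called, all upward, and in 28 of 28 the fed libraries lay above the non-infested ones without overlap, as did 24.6% of all tested genes in RP, 11.2% in B14, 19.1% for B15 and 20.3% for B1415. In RP, 7 of 7 members rose, where 3.94% of all tested genes were called higher, and their median log2 fold change was 2.67 against -0.000349 over all genes. The largest was that of RBBI3-3 (log2 fold change 3.69 ± 0.22, SE, adjusted p = 2.87e-12). In B15, 7 of 7 rose (background 1.95%), led by RBBI3-2 at 3.79 ± 0.31 (SE, adjusted p = 5e-07). In B1415, 7 of 7 rose (background 3.37%), led by Os01g0127600 at 3.53 ± 0.14 (SE, adjusted p = 5.71e-11). The smallest change of a member in B15 and in B1415 was 1.48 and 1.98 on the log2 scale, for RBBI2-3 and Os03g0823400.

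In B14, 5 of 7 members were called higher at the early stage, where 0.875% of all genes were. RBBI2-1 (log2 fold change 1.66 ± 0.34, SE, adjusted p = 0.0718) and Os03g0823400 (1.67 ± 0.31, SE, adjusted p = 0.053) did not pass, although their libraries did not overlap. DESeq2 called 7 of 7. The non-infested library B14_0-3 held more of both than B14_0-1 and B14_0-2 (for Os03g0823400 138 against 63.3 and 67.1 CPM). Without it, 7 of 7 passed, at 2.14 for RBBI2-1 and 2.14 for Os03g0823400. As B14_0-3 was named here for its values in these genes, that count is description only. Shares of all genes called by DESeq2 and without B14_0-3 are not given here. With B14_0-1, B14_0-2 or any B14_early library left out, 4 or 5 of the 5 calls were lost, with adjusted p-values of 0.0569 to 0.254 and log2 fold changes of 1.31 to 2.86.

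Late feeding raised all 7 genes in all 4 lines, 28 calls in 28 tests. Their ranges did not overlap, which held for 30.7% of all tested genes in RP, 27.7% in B14, 34% for B15 and 25% for B1415. The share of all genes called higher was 9.7% for RP, 12.6% for B14, 13.4% for B15 and 6.73% for B1415, and the members' median log2 fold change was 3.16, 3.32, 3.71 and 3.48 in that order. With all libraries RBBI3-2 and RBBI3-3 had the largest changes in each line. RBBI3-2 rose by a log2 fold change of 5.01 ± 0.25 (SE) in RP (adjusted p = 3.25e-15), 4.78 ± 0.34 in B14, 6.13 ± 0.70 in B15 and 5.29 ± 0.94 in B1415 (adjusted p = 0.002). RBBI3-3 rose by 4.78, 5.0, 4.55 and 4.69 in the same order of lines, and RBBI3-1 by 3.70, 3.97, 3.75 and 3.48. The least change was that of Os01g0127600 in B15 at 1.98 ± 0.25 (SE, adjusted p = 1.73e-05). Left out together, B15_late-3 and B1415_late-3 took no call away: 7 of 7 passed in B15 (background 14.1%) and in B1415 (background 4.93%). The sizes moved, however. In B1415 RBBI3-2 came to 3.61, RBBI3-3 to 3.17 and RBBI3-1 to 2.46, and the largest change there was then that of RBBI2-1 at 3.80. In B15 the RBBI3 genes came to 6.58, 5.02 and 4.13 in the order RBBI3-2, RBBI3-3, RBBI3-1.

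**Figure D2:**
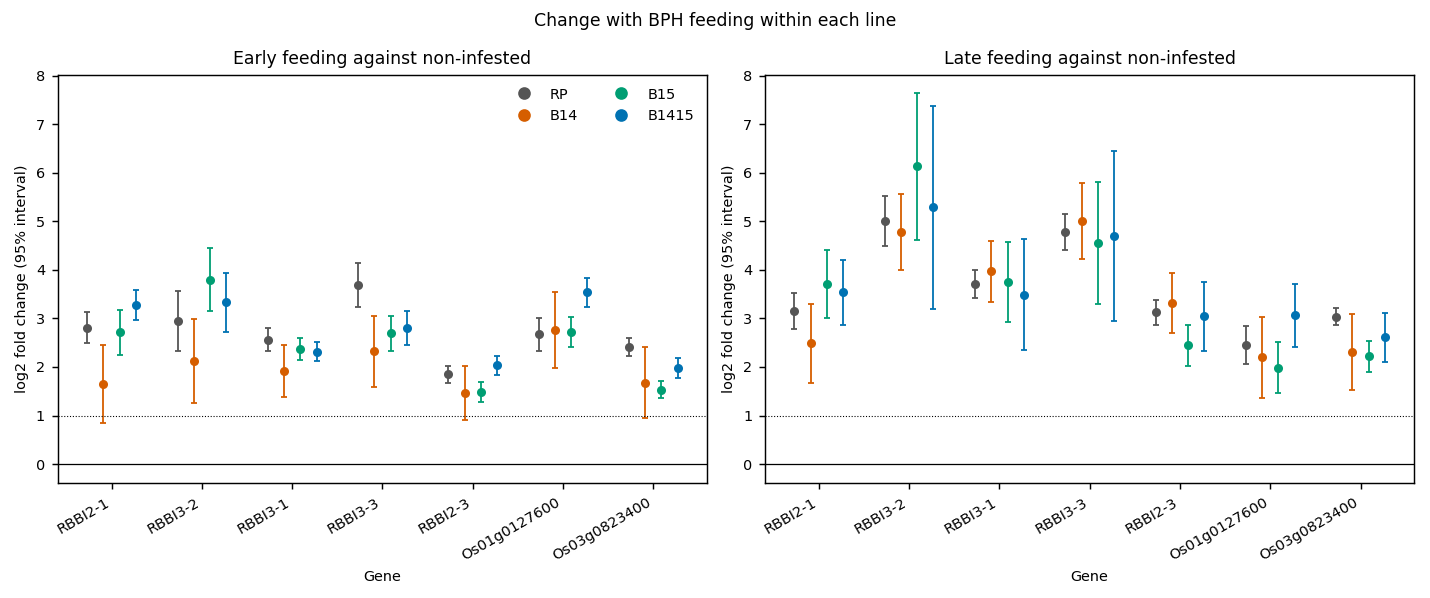
Log2 fold change of each gene with early (left) and late (right) feeding against the non-infested libraries of the same line; points are edgeR estimates from 3 against 3 libraries, bars are 95% intervals and the dotted line marks 2-fold. At the late stage every interval lies above 1, and those of RBBI3-2 and RBBI3-3 in B1415 and B15 are the widest.

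Between the early and the late stage the members parted. RBBI3-2, RBBI3-1, RBBI3-3 and RBBI2-3 were called higher late than early in RP (4 of 7 members, background 2.81%) and in B14 (4 of 7, background 8.75%). In B14 their log2 fold changes were 2.64 ± 0.13, 2.04 ± 0.11, 2.66 ± 0.10 and 1.84 ± 0.13 (SE), and in RP 2.07 ± 0.18, 1.15 ± 0.15, 1.10 ± 0.18 and 1.28 ± 0.14 (SE). Os03g0823400 also rose from early to late in both lines, by 0.63 in each, under 2-fold (adjusted p = 0.00019 and 0.00194). Os01g0127600 did not: it was lower late than early in B14 by 0.58 on the log2 scale (log2 fold change -0.58 ± 0.15, SE, adjusted p = 0.00891), and in RP its difference was -0.21 (95% interval -0.47 to 0.06, adjusted p = 0.247). RBBI2-1 gained 0.81 in B14 (adjusted p = 0.000784) and 0.36 in RP (adjusted p = 0.0575). In RP the calls of RBBI3-3 and RBBI3-1 sat close to 2-fold: without RP_late-1 they came to 0.93 and 0.96, and without RP_early-2 that of RBBI3-3 came to 0.90.

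In B15, 4 of 7 members were called higher late than early (background 4.75%): RBBI2-1 at 1.01 (adjusted p = 0.0159), RBBI3-2 at 2.34, RBBI3-1 at 1.39 and RBBI3-3 at 1.87. DESeq2 called 3. RBBI2-1 lost its call without B15_early-1 (0.79) or B15_late-3 (0.55), and RBBI3-1 without B15_late-1 (0.85). Under 2-fold, RBBI2-3 and Os03g0823400 were higher late in B15, by 0.97 and 0.70 (adjusted p = 0.00141 and 0.00203). Os01g0127600 was lower late, with a log2 fold change of -0.72 (adjusted p = 0.0131). In B1415 edgeR called 0 of 7 (background 0.613%), as did DESeq2, and 4 passed when an unadjusted p below 0.05 replaced the adjusted one (5 without the 2-fold limit). Its log2 fold changes of 1.97 ± 0.73 for RBBI3-2 and 1.90 ± 0.66 for RBBI3-3 (SE) had wider errors than in the other lines. Without B1415_late-1 the 4 genes RBBI3-2, RBBI3-1, RBBI3-3 and RBBI2-3 passed, at 2.43, 1.53, 2.34 and 1.28. That fit keeps B1415_late-2 and B1415_late-3, at 8.47 and 54.5 CPM for RBBI3-2, so it leans on B1415_late-3. Its share of all genes called is not given here.

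The late libraries of B15 and B1415 were far apart within each group. RBBI3-2 stood at 46.4 and 24.8 CPM in B15_late-1 and B15_late-2 but at 7.31 CPM in the library labelled B15_late-3. In B1415 it stood at 5.79 and 8.47 CPM in the first pair of libraries but at 54.5 CPM in the library labelled B1415_late-3. RBBI3-1 (391, 237 and 96.6 CPM in B15_late, then 86.4, 99.3 and 381 CPM in B1415_late) and RBBI3-3 (129, 68.2 and 17.5 CPM, then 16.3, 22.1 and 127 CPM) showed the same arrangement. So did RBBI2-3, with 977, 837 and 526 CPM in B15_late and 429.8, 539 and 1122 CPM in B1415_late, and Os03g0823400, with 404, 465 and 303 CPM and then 244, 301 and 478 CPM.

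RBBI2-1 and Os01g0127600 were arranged the other way round. Os01g0127600 had 13.4, 18.3 and 27 CPM in B15_late and 25.7, 31.5 and 14.0 CPM in B1415_late. The library labelled B1415_late-3 held 7.64 times the mean of the other B1415_late libraries for RBBI3-2, 4.10 times for RBBI3-1, 6.63 times for RBBI3-3 and 2.32 times for RBBI2-3, but 0.512 times for RBBI2-1 and 0.490 times for Os01g0127600. For the library labelled B15_late-3 the same ratios were 0.206, 0.308, 0.177 and 0.580, against 2.05 for RBBI2-1 and 1.71 for Os01g0127600. Each of these libraries was thus closer in all 7 genes to the other pair of the opposite line than to the pair that shares its label. Whether a label is wrong was not tested, and every library was kept under its label.

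**Figure D3:**
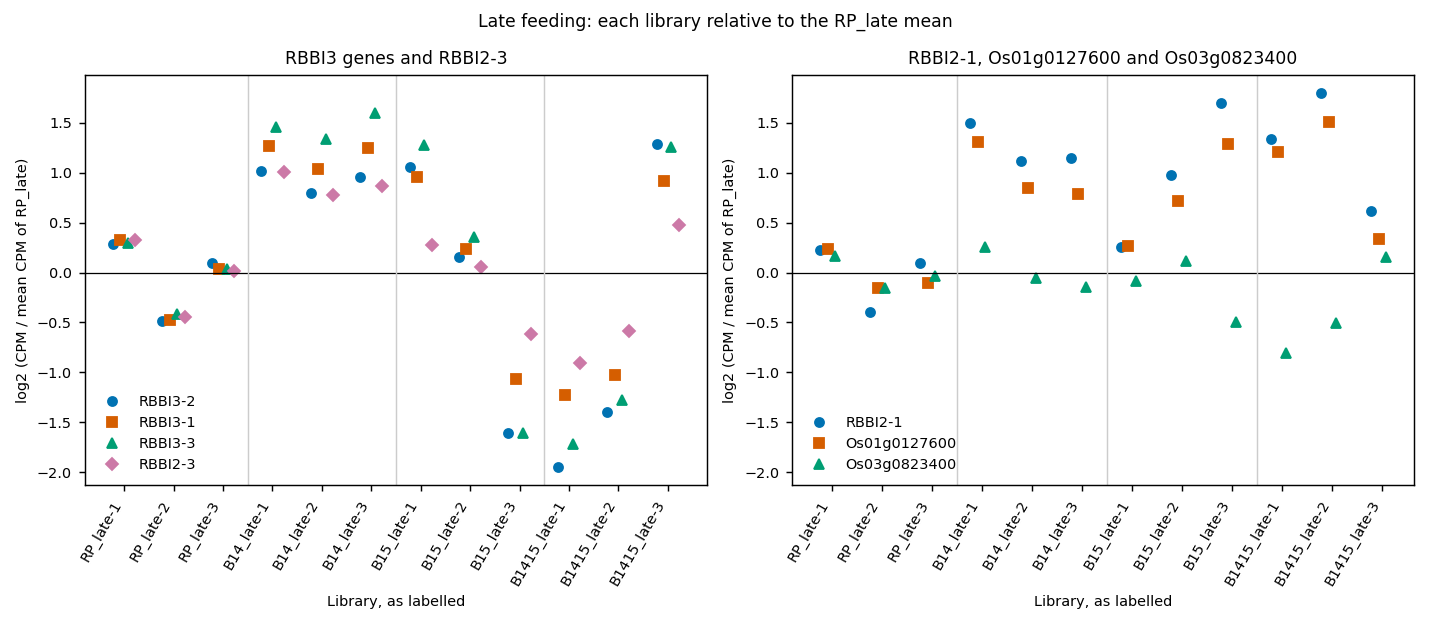
Level of each gene in the 12 late libraries as log2 of CPM over the mean of RP_late, with the RBBI3 genes and RBBI2-3 on the left and the other members on the right. B15_late-3 lies below the other B15_late libraries for the RBBI3 genes and RBBI2-3 and above them for RBBI2-1 and Os01g0127600, and B1415_late-3 the reverse, for example 7.31 against 46.4 and 24.8 CPM for RBBI3-2 in B15_late.

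Leaving out both libraries changed the late stage of B15 and B1415. Setting libraries aside for their values in these genes also narrows the spread within a group, so the calls below are descriptive. For RBBI3-2 in B1415, late against non-infested, the SE went from 0.94 to 0.30. In B15, the RBBI3 genes and RBBI2-3 rose from early to late (4 of 7, background 5.72%), at 2.79, 1.77, 2.33 and 1.19, and Os01g0127600 fell (1 of 7, background 6.87%), with a log2 fold change of -1.04 ± 0.16 (SE, adjusted p = 0.000145). In B1415, 0 of 7 passed in edgeR (background 0.492%), with 4 at an unadjusted p below 0.05 and 0 of these past 2-fold, and the estimates were 0.30 for RBBI3-2, 0.16 for RBBI3-1 and 0.38 for RBBI3-3, with 0.54 for RBBI2-1 (adjusted p = 0.00653) and 0.50 for RBBI2-3 (adjusted p = 0.00196) under 2-fold. DESeq2 was not run without these libraries.

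Each resistant line was compared with RP at the same stage. With 1 line per genotype, an effect of the resistance genes cannot be told apart from other differences between the lines. These comparisons share the 3 RP libraries of a stage, so their values are given side by side. Before feeding 1 of 19 tests was called, and RBBI3-2 could not be tested in B15 and B1415 because its counts were too low. Os01g0127600 was higher in B15_0 than in RP_0 (log2 fold change 1.24 ± 0.23, SE, adjusted p = 7.84e-05), the 1 call among 6 members where 12.6% of all genes were called higher. With 6 members, 1 call lies near that share. RBBI2-3 and Os03g0823400 were also higher there, by 0.59 and 0.65 (adjusted p = 1.83e-06 and 4.81e-07), and RBBI3-3 by 0.61 (adjusted p = 0.0435), all under 2-fold. The share of all genes passing the adjusted p without the 2-fold limit is not given here. In B14_0 edgeR called 0 of 7 (background 0.0636%), DESeq2 1, and 3 passed with an unadjusted p below 0.05 and 2-fold (6 without the 2-fold limit), although 6 of 7 members lay above RP_0 without overlap, as did 18.5% of all tested genes. RBBI2-1 was 1.90 ± 0.36 (SE) higher in B14_0 (95% interval 1.04 to 2.76, adjusted p = 0.25). Without B14_0-3 it was 1.45 higher and passed (adjusted p = 1.42e-05), which is description only because B14_0-3 stood high in this gene. In B1415_0 edgeR and DESeq2 called 0 of 6 (background 2.09%), with 0 at an unadjusted p below 0.05 and 2-fold (1 without the 2-fold limit). RBBI2-1 was 0.95 higher there (adjusted p = 0.0231), and past 2-fold without B1415_0-1 (1.06) or B1415_0-3 (1.04).

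At the early stage Os01g0127600 was called higher than in RP in each resistant line. It was higher in B14 by a log2 fold change of 1.31 ± 0.11 (SE, adjusted p = 9.95e-07), in B15 by 1.29 ± 0.11 (SE, adjusted p = 2.63e-08) and in B1415 by 1.36 ± 0.09 (SE, adjusted p = 5.37e-09), with every library of these lines above every RP library. Before feeding its differences from RP had been 1.22 in B14 (adjusted p = 0.402), 1.24 in B15 (called) and 0.50 in B1415 (adjusted p = 0.24). RBBI2-2 (Os01g0123900), a Bowman-Birk gene outside the 7, was also higher than RP at the early stage. Its differences were 0.58, 0.78 and 0.81 in B14, B15 and B1415, each under 2-fold. Os01g0127600 was the 1 call of 7 members in B14 (background 1.22%) and in B15 (background 7.2%). In B1415, 2 of 7 were called (background 3.93%), the other being RBBI2-1 at 1.41 ± 0.09 (SE, adjusted p = 6.89e-09). RBBI2-1 was higher by less than 2-fold in B14 (0.74, adjusted p = 0.000277) and B15 (0.40, adjusted p = 0.039). The trypsin inhibitor RBBI3-3 went the other way in B1415_early, at -0.74 ± 0.16 (SE, adjusted p = 0.00236), and Os03g0823400 was slightly lower in B15 and B1415, at -0.23 (adjusted p = 0.0462) and -0.32 (adjusted p = 0.032). RBBI3-2, RBBI3-1 and RBBI2-3 did not pass in any line, with estimates from -0.11 to 0.29.

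At the late stage, with all libraries, edgeR called members higher than RP in B14 only. Means were nonetheless similar in B1415_late and B14_late for RBBI2-1 (44.9 and 42.9 CPM) and Os01g0127600 (23.7 and 22.2 CPM). RBBI2-1 (log2 fold change 1.26 ± 0.16, SE, adjusted p = 0.000941), RBBI3-1 (1.20 ± 0.17, SE, adjusted p = 0.00166) and RBBI3-3 (1.47 ± 0.15, SE, adjusted p = 0.000297) were higher in B14_late than in RP_late, 3 of 7 members where 3.44% of all genes were called higher. RBBI3-2, RBBI2-3 and Os01g0127600 were higher by 0.92, 0.90 and 1.00, just under 2-fold (adjusted p = 0.00497, 0.00648 and 0.00384). These 6 members did not overlap between the lines, which held for 14.3% of all tested genes in the same direction. Os03g0823400 differed by 0.04 (95% interval -0.23 to 0.31).

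With all libraries, edgeR called 0 of 7 members in B15_late against RP_late (background 0.446%, 1 at an unadjusted p below 0.05 and 2-fold, 0 by DESeq2) and 0 of 7 in B1415_late (background 0.0124%, 2 at an unadjusted p below 0.05 and 2-fold, 2 by DESeq2). RBBI2-1 was 1.10 and 1.34 higher in these lines, and Os01g0127600 0.82 and 1.11 higher (adjusted p = 0.149, 0.133, 0.159 and 0.166). Without B15_late-1 both passed in B15, at 1.39 and 1.04. That fit keeps B15_late-2 and B15_late-3, at 35.1 and 57.9 CPM for RBBI2-1, so it leans on B15_late-3. The 95% interval of RBBI3-2 in B1415 ran from -1.45 to 1.53.

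Without B15_late-3 and B1415_late-3, B1415_late differed from RP_late in both directions. RBBI2-1 (1.59 ± 0.16, SE, adjusted p = 2.06e-05) and Os01g0127600 (1.37 ± 0.14, SE, adjusted p = 2.83e-05) were higher, 2 of 7 members where 1.42% of all genes were. RBBI3-2 (-1.63 ± 0.21, SE, adjusted p = 0.000152), RBBI3-1 (-1.11 ± 0.16, SE, adjusted p = 0.000473) and RBBI3-3 (-1.46 ± 0.18, SE, adjusted p = 8.60e-05) were lower, 3 of 7 where 1.8% were. RBBI2-3 and Os03g0823400 were lower by less than 2-fold, at -0.72 and -0.63 (adjusted p = 0.0104 and 0.00185). For B15_late 0 of 7 were called in edgeR (background 0.816%), 5 having an unadjusted p below 0.05 with changes under 2-fold. The values of B1415_late-1 and B1415_late-2 alone carry these B1415 results, and B1415_late-3 was left out because of its values in these same genes.

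**Figure D4:**
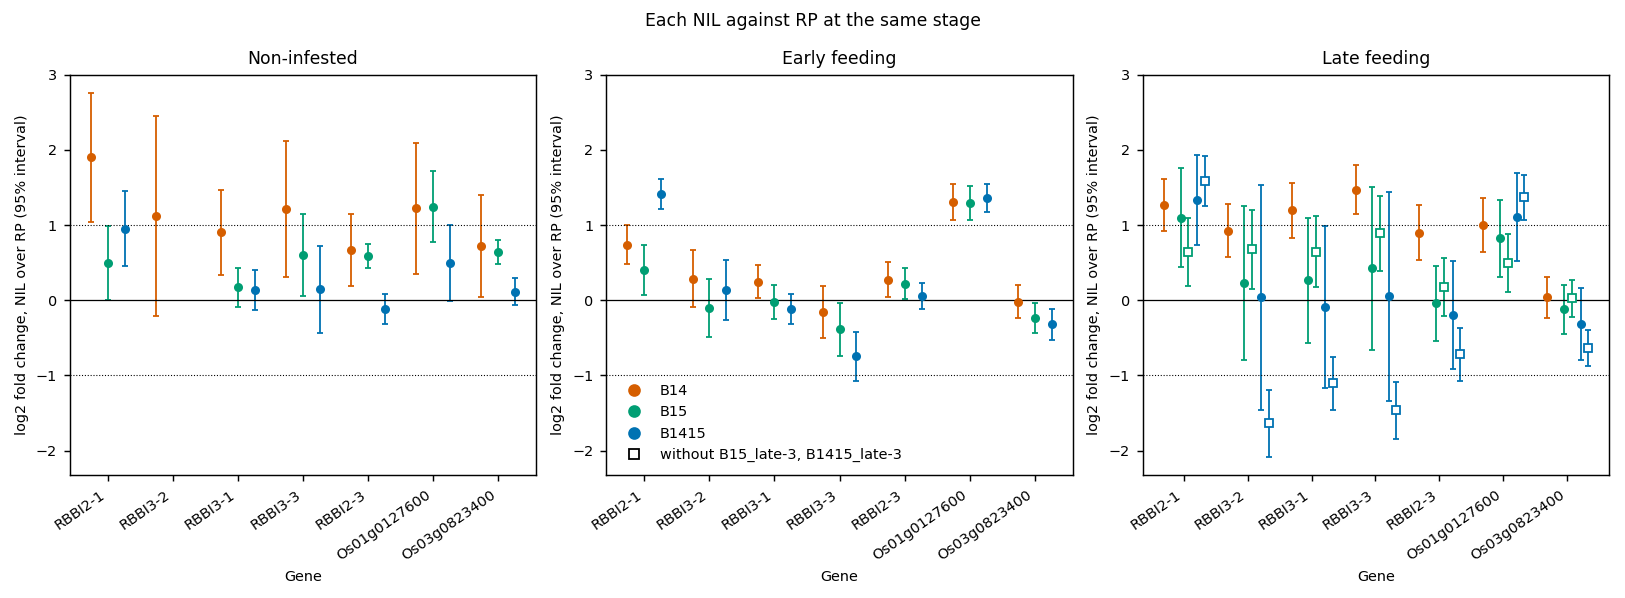
Log2 fold change of each gene in B14, B15 and B1415 over RP at the same stage, with 95% intervals and dotted lines at 2-fold; open squares leave out B15_late-3 and B1415_late-3. At the early stage Os01g0127600 lies above 2-fold in 3 of 3 lines, and at the late stage RBBI3-2, RBBI3-1 and RBBI3-3 of B1415 move from near 0 to -1.63, -1.11 and -1.46 without those libraries.

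B1415 was next compared with the lines that carry 1 of its 2 resistance genes. In 41 tests edgeR and DESeq2 called 0 members past 2-fold, and 5 passed with an unadjusted p below 0.05 and 2-fold. The background was 0.0927% against B14_0, 14.3% against B15_0, 2.8% against B14_early, 5.39% against B15_early, 2.75% against B14_late and 0% against B15_late. Smaller differences passed the adjusted p in 9 tests. The share of all genes passing without the 2-fold limit is not given here, and against B15_0 14.3% passed even with that limit. RBBI2-1 was higher in B1415_early than in B14_early by 0.65 ± 0.11 (SE, adjusted p = 0.000955) and than in B15_early by 0.97 ± 0.14 (SE, adjusted p = 2.06e-05), and the latter passed 2-fold without B1415_early-2 (1.05) or B15_early-3 (1.17). RBBI3-3 was lower in B1415_early, at -0.61 ± 0.09 against B14 and -0.39 ± 0.12 against B15 (SE, adjusted p = 0.000519 and 0.0109). Before feeding, RBBI2-3, Os01g0127600 and Os03g0823400 were lower in B1415 than in B15, at -0.73, -0.77 and -0.55 (adjusted p = 7.09e-05, 0.00746 and 0.000121).

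Without B15_late-3 and B1415_late-3, the late comparison gave calls, which depend on having set those libraries aside for their values in these genes. RBBI3-2, RBBI3-1, RBBI3-3 and RBBI2-3 were lower in B1415_late than in B14_late (4 of 7, background 4.67%), at -2.55 ± 0.18, -2.29 ± 0.15, -2.93 ± 0.16 and -1.61 ± 0.16 (SE). RBBI3-2, RBBI3-1 and RBBI3-3 were lower than in B15_late (3 of 7, background 1.47%), at -2.31 ± 0.27, -1.75 ± 0.20 and -2.35 ± 0.25 (SE). RBBI2-1 and Os01g0127600 were higher than in B15_late by 0.96 and 0.88 (adjusted p = 0.0218 and 0.0165), under 2-fold.

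The response to feeding was compared between each resistant line and RP directly, by the interaction of line and stage at an adjusted p below 0.05. At the early stage 1 of 21 tests passed: Os03g0823400 rose less in B15 than in RP (difference -0.91 ± 0.13, SE, adjusted p = 0.000419), 1 of 7 members where 4.5% of all genes passed. Its non-infested level was 84.0 CPM ± 3.01 (SD, n = 3) in B15 against 52.6 CPM ± 1.61 (SD, n = 3) in RP, and its early levels were 242 ± 10.2 and 277 ± 41.5 CPM. In a single fit of all 36 libraries the adjusted p was 0.308. In B14 edgeR called 0 of 7 (background 0.0121%, 3 at an unadjusted p, 0 by DESeq2), and in B1415 0 of 7 (background 0.646%, 3 at an unadjusted p, 1 by DESeq2). The estimate for Os01g0127600 in B1415 was 0.86 (adjusted p = 0.0804), and it passed without B1415_0-2 (0.95, adjusted p = 0.0314).

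At the late stage Os03g0823400 (-0.83 ± 0.17, SE, adjusted p = 0.000857) and RBBI2-3 (-0.70 ± 0.26, SE, adjusted p = 0.0341) rose less in B15 than in RP, 2 of 7 members where 46.4% of all genes passed, a share above that of the members. The RBBI2-3 (Os01g0124650) call was lost when any of 7 of the 12 libraries was left out (adjusted p up to 0.122) and with DESeq2 (0.0824). In B14 and B1415 edgeR called 0 of 7 (background 0.238% and 0.0279%, 0 at an unadjusted p and 0 by DESeq2 in both). Without B15_late-3 and B1415_late-3, 3 of 7 passed in B15 (background 45.8%), Os01g0127600 being added at -0.80, and 3 of 7 in B1415 (background 4.64%): RBBI3-1 at -1.26, RBBI3-3 at -1.62 and Os03g0823400 at -0.76, all rising less than in RP.

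The 4 lines form a 2 by 2 arrangement of BPH14 and BPH15. The level in B1415 can therefore be tested against the sum of the differences of B14 and B15 from RP on the log2 scale. Before feeding 6 of 7 members were below that sum, where 51.6% of all genes differed from it in either direction. The differences ran from -0.96 ± 0.28 for RBBI3-1 to -1.99 ± 0.44 for Os01g0127600 (SE, adjusted p = 0.0151 and 0.00431), and RBBI3-2 did not pass. All 6 stayed past the threshold with each of the 12 libraries left out in turn, but in a single fit of all 36 libraries RBBI3-1 (Os01g0124200, adjusted p = 0.124) and RBBI3-3 (Os01g0124401, adjusted p = 0.155) did not pass. At the early stage Os01g0127600 (-1.24 ± 0.14, SE, adjusted p = 6.90e-07) and RBBI2-3 (-0.43 ± 0.15, SE, adjusted p = 0.0169) passed, 2 of 7 against a background of 55.7%, so that Os01g0127600 stood at about the same level in B14, B15 and B1415. The RBBI2-3 call was lost without B14_early-2 (adjusted p = 0.0603) or RP_early-2 (0.0578) and in the single fit (Os01g0124650, adjusted p = 0.195). At the late stage edgeR called 0 of 7 (background 1.4%, 3 at an unadjusted p, 0 by DESeq2). With B15_late-3 and B1415_late-3 left out, 5 of 7 passed (background 14%), all below the sum: RBBI3-2 at -3.23, RBBI3-1 at -2.94, RBBI3-3 at -3.82, RBBI2-3 at -1.79 and Os03g0823400 at -0.70. Those libraries were chosen by their values in these genes, so this count is descriptive.

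The other protease inhibitors available by annotation were 3 chromosome 1 genes. RBBI2-2 (Os01g0123900), a Bowman-Birk gene next to the cluster that is not among the 7, rose in all 8 feeding comparisons, by log2 fold changes of 1.57 to 2.21. Its levels were 36.2, 30.7 and 35.1 CPM in RP_0, 116, 99.3 and 116 CPM in RP_early and 127, 97.8 and 106 CPM in RP_late, so that early and late overlapped. IAI2 (Os01g0132000), annotated as similar to a wound-induced inhibitor of maize, was called higher in 7 of 8, by 1.05 to 1.75, and in RP_late the change was 0.99. The change of IAI2 with early feeding was larger in B1415 than in RP (difference 0.65 ± 0.11, SE, adjusted p = 0.0048). Os01g0131900, annotated like IAI2, stood at 1.55 CPM or less in every library, was testable in 3 of the 8 comparisons and was called lower in B14_late (log2 fold change -2.26, adjusted p = 0.00658).

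Most other genes of the neighbourhood on chromosome 1 did not pass the test. In locus order, 25 other genes lie between RBBI2-2 and Os01g0127600, of which 12 to 14 could be tested. The hypothetical gene Os01g0124700, next to RBBI2-3, was called higher in 8 of 8 comparisons, with log2 fold changes from 1.43 (B15_early) to 4.52 (B14_late), and Os01g0125550, a conserved hypothetical gene, in the 4 late ones, at 1.03 to 1.17. The multicopper oxidase genes OsLPR4 (Os01g0126900) and OsLPR2 (Os01g0126200) were called lower in 7 and 1 of the 8. The median log2 fold change of the tested neighbours ran from -0.03 to 0.36.

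Over the 36 libraries the RBBI3 genes and RBBI2-3 had the most similar profiles. Pearson's r of log2 CPM was 0.970 to 0.994 among RBBI3-2, RBBI3-1 and RBBI3-3, and 0.963 to 0.984 between these and RBBI2-3. It was 0.909 between RBBI2-1 and Os01g0127600, but 0.689 to 0.734 between Os01g0127600 and the RBBI3 genes. These values describe libraries that share lines, stages and scaling. Among all other genes, the profiles most like the mean of the 7 members were those of Os01g0825800 (r = 0.985), Os09g0417800 (0.984), Os04g0679400 (0.978), Os03g0405500 (0.978) and Os12g0585300 (0.977), none of which carried an annotation here. RBBI2-2 was the gene most like RBBI2-1 (r = 0.943) and Os01g0127600 (0.982), Os01g0825800 the one most like each RBBI3 gene (0.967 to 0.985), Os02g0730000 most like RBBI2-3 (0.983) and Os04g0679400 most like Os03g0823400 (0.990). Os01g0825800 itself went from 4.70 CPM ± 0.782 in RP_0 to 40.0 ± 8.38 in RP_late and 61.8 ± 2.56 in B14_late (SD, n = 3).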

How the data were processed

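RNA sequencing of 36 rice leaf sheath libraries (12 groups of 3) was analysed from the gene count table. The deposited values are raw read counts per gene, which the authors obtained by aligning reads with Hisat2 (version 2.0.4 per the labels) to IRGSP 1.0 and counting with HTSeq. The labels and the methods differ on the library kit, the sequencer and 1 time point in their lists of infestation times, while both give 3, 6 and 12 h as the early pool. Counts were tested with edgeR 4.0.16 (limma 3.58.1, R 4.3.3): TMM scaling, filterByExpr at a minimum count of 10, and the quasi-likelihood test fitted to the groups of each comparison over all genes, with Benjamini-Hochberg adjustment. Calls needed an adjusted p below 0.05 and, for 27 comparisons of 2 groups, more than 2-fold; 9 interaction tests used the adjusted p alone. Replicates were not treated as paired. Shares of all genes are given for these calling rules, not for adjusted p-values of comparisons of 2 groups without the 2-fold limit. All 7 members were named, and the members and lists were chosen with earlier results of these data known. The p-values measure the spread between replicate libraries, each from a pool of seedlings. The test script was checked on simulated data. Alternatives were DESeq2 1.42.0, total count scaling, no count filter, a replicate block, a single fit of 36 libraries, unadjusted p-values, and leaving out each library in turn or B15_late-3 and B1415_late-3 together. Likeness between genes used log2 CPM with a prior count of 2. No 2 replicates were duplicates of each other. Fold changes and p-values of the authors' own comparisons were not used.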

Additional observations from a re-analysis of the deposited data

Results flagged for a closer look

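For a member, 11 interaction tests passed (edgeR, adjusted p below 0.05). Of these, 1 was of line and early stage and 2 of line and late stage, which compare changes with feeding. The other 8 were of BPH14 and BPH15, which compare levels at 1 stage. Early feeding raised Os03g0823400 less in B15 than in RP, with a log2 difference of -0.91 (adjusted p = 0.000419), in a test that 4.5% of all genes passed. Late feeding did so for Os03g0823400 at -0.83 (adjusted p = 0.000857) and for RBBI2-3 (Os01g0124650) at -0.70 (adjusted p = 0.0341), 2 of 7 members where 46.4% of all genes passed. Before feeding, the level in B1415 was below the sum of the differences of B14 and B15 from RP by -1.45 for RBBI2-1, -0.96 for RBBI3-1, -1.69 for RBBI3-3, -1.40 for RBBI2-3, -1.99 for Os01g0127600 and -1.27 for Os03g0823400 (adjusted p from 0.00223 to 0.019), 6 of 7 members where 51.6% of all genes passed. At the early stage the same difference was -0.43 for RBBI2-3 (adjusted p = 0.0169) and -1.24 for Os01g0127600 (adjusted p = 6.90e-07), 2 of 7 members where 55.7% of all genes passed. The shares of 2 of 7 lie below those of all genes.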

How the results depend on the processing

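Over 249 pairs of member and comparison, 3386 of 3692 alternative values kept their direction and their side of the threshold, 57 lost a call, 142 gained one, and 107 changed direction, 0 of these in called pairs. Precision was limited by 3 libraries a group and, for RBBI3-2 before feeding, by counts of 4 to 38. For the resistant lines against RP before feeding (1 call), DESeq2 gave 2, a single fit of 36 libraries 3, an unadjusted p 4, and leaving out 1 library 1 to 2. Late (3 calls), no count filter gave 5, DESeq2 6, the single fit 5, an unadjusted p 6, leaving out B15_late-3 and B1415_late-3 together 8, and leaving out 1 library 3 to 8. For B1415 against B14 or B15 (0 calls), total count scaling gave 2, no filter 1, the single fit 3, an unadjusted p 5, leaving out both libraries 7, and 1 library 0 to 4. The early interaction (1 call) gave 5 without a filter, 3 with DESeq2, 0 in the single fit, 9 with an unadjusted p, and 1 to 4 without 1 library. The late interaction (2 calls) gave 1 with total count scaling, DESeq2 or the single fit, 6 without both libraries, and 1 to 5 without 1. The BPH14 by BPH15 interaction (8 calls) gave 13 without both libraries and 5 in the single fit. Except where libraries were left out, the cause of these changes was not tested. Shares of all genes called under most of these settings are not given here. A gain or loss among the members therefore cannot be told apart from one over all genes.

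No pairing by replicate number was detected: in 0 of 27 comparisons did every same-numbered pair correlate above 0.1 (range -0.57 to 0.24). With 3 libraries a group this rule cannot exclude a pairing. With the number as a replicate block, early feeding gave 22 calls of 28, the resistant lines against RP late 5, and B1415 against B14 or B15 3. Shares of all genes called with the block are not given here either. For B1415_late against RP_late the block turned Os01g0124100 to -0.56 and Os01g0124401 to -0.52. The log2 fold changes of that comparison were -1.63 for Os01g0124100 and -1.46 for Os01g0124401 without both libraries, and leaving out 1 library gave -1.63 to 0.49 for Os01g0124100, -1.11 to 0.26 for Os01g0124200 and -1.46 to 0.48 for Os01g0124401. For B1415_late against B15_late the same ranges were -1.86 to 0.53 for Os01g0124100, -1.37 to 0.18 for Os01g0124200 and -1.89 to 0.38 for Os01g0124401. For the late interaction of B1415 they were -1.26 to 0.13 for Os01g0124200 and -1.62 to 0.35 for Os01g0124401.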
